A study of Homo sapiens with 6 samples.

Results

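The immunoglobulin-type adhesion molecules examined here were 10 genes chosen by symbol: ICAM1, ICAM2, ICAM3, ICAM4, ICAM5, VCAM1, L1CAM, ALCAM, NCAM1 and MCAM. Of these, 9 were analysed among the 17039 genes of the table, and VCAM1 was not analysed here. RNA with poly(A) tails was sequenced in 6 libraries, of which 3 came from the breast cancer line MDA-MB-231, of human origin, and 3 from 231-BR, its variant that spreads to the brain. Both lines were grown in DMEM with serum and antibiotics, and G418 was added to the medium of 231-BR cells only, so that the effects of the line and of G418 cannot be told apart. The label field for the cell line counts up from 231 to 233 between the replicates of each line, and the libraries were grouped by their titles. The sources do not say whether the replicates were separate cultures, so the p-values measure the spread between these libraries, which may be technical.

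Adhesion molecules of this type sit in the plasma membrane and carry immunoglobulin domains outside the cell. The ICAM proteins and VCAM1 are bound by integrins of other cells, chiefly of leukocytes, and ICAM1 and VCAM1 are known as genes that inflammatory cytokines switch on through NF-kB, a transcription factor. L1CAM and NCAM1 are best known from the nervous system, where they bind copies of themselves or other partners on neighbouring cells. ALCAM binds itself and CD6 of T cells, and MCAM is known from blood vessel walls and melanoma.

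The lines differed most in ICAM2, MCAM and ICAM1. ICAM2 stayed below 0.1 FPKM in MDA-MB-231 cells and averaged 20.2 FPKM in 231-BR cells, MCAM was 6.91 times higher in 231-BR cells, and ICAM1 was 9.47 times higher in MDA-MB-231 cells. ICAM3 and ICAM5 were also higher in 231-BR cells, by 3.10 and 3.25 times the mean level. ALCAM was the most expressed member in both lines and differed by 1.36 times. Levels are given as FPKM, the fragments of a gene scaled by transcript length and by the mapped total of the library, so that genes can be compared. In RNA from whole cultures, fewer cells that express a gene and less RNA of it per cell cannot be told apart.

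ICAM1, ICAM4, ICAM5 and ICAM3 lie together on the short arm of chromosome 19 of GRCh38, by the annotation of GENCODE release 29. ICAM1 lies at chr19:10270835-10286615 on the plus strand and is followed after 351 bases by ICAM4 at chr19:10286967-10288522. ICAM5 at chr19:10289981-10296778 starts 1458 bases farther on, and ICAM3 at chr19:10333776-10339823 lies on the minus strand beyond other genes. The others are single genes. ICAM2 lies at chr17:64002594-64020634 on the minus strand, MCAM at chr11:119308529-119321521 on the minus strand, NCAM1 at chr11:112961247-113278436 on the plus strand, ALCAM at chr3:105366909-105576900 on the plus strand and L1CAM at chrX:153861514-153886174 on the minus strand.

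The promoter sequence of ICAM1 is shown because it holds letters like those of a binding site for NF-kB. RefSeq windows on GRCh38.p14 were found for 8 of the 10 genes, and the 250 bases upstream of each annotated start were searched on both strands for GGNNNTTCC, a pattern like that bound by NF-kB, for TATAAA and for GGGCGG. The ICAM1 window holds a match to each of them. The first pattern matches 178 to 186 bases upstream of the start and TATAAA 25 to 30, and both are given below in capitals within 30 bases of the plus strand, at chr19:10270924-10270953 and chr19:10271078-10271107. One annotated ICAM1 transcript begins farther upstream and covers all of this stretch.
ICAM1 NF-kB-like match: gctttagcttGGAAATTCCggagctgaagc
ICAM1 TATA match: ggtggctagcgcTATAAAggatcacgcgcc

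The windows of ICAM5, the neighbour of ICAM1 that went the other way, and of MCAM are shown for comparison, with matches to GGGCGG or its complement in capitals. The ICAM5 window is chr19:10289702-10289951 on the plus strand, and the MCAM window is chr11:119317131-119317380 on the minus strand. By the GENCODE positions the MCAM gene begins farther upstream, at 119321521, so that its window lies within the gene.
ICAM5 upstream window: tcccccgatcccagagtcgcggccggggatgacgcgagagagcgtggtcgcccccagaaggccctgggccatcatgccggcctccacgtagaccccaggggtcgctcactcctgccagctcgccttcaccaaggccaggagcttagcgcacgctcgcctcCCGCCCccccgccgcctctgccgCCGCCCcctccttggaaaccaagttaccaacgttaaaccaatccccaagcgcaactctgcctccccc
MCAM upstream window: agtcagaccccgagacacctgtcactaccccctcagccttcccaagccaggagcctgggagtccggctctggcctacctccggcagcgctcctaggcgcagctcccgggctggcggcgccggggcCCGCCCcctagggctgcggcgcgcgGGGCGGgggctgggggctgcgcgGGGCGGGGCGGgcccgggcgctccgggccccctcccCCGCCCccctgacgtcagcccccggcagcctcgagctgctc

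The ICAM5 window holds 2 GGGCGG matches and the MCAM window 5, of which 2 overlap by 1 base, and neither holds any of the other patterns. Among all 35116 windows of that length, 17.1% held a match to GGNNNTTCC, 10.7% to TATAAA and 42.6% to GGGCGG. Besides ICAM1, the GGNNNTTCC letters were found upstream of VCAM1, and they were in none of the windows of ICAM3, ICAM4, ICAM5, L1CAM, ALCAM and MCAM. A match is a description of the letters, and binding was not measured.

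ICAM1, the receptor for leukocyte integrins, had the largest decrease of the members above 1 FPKM. It had 2.70, 2.79 and 2.91 FPKM in the 231-BR libraries, compared with 25.7, 27.1 and 26.7 FPKM in the MDA-MB-231 libraries. Every 231-BR library was far below every MDA-MB-231 library, with means of 2.80 ± 0.105 and 26.5 ± 0.698 FPKM (SD, n = 3 each). For the test, 0.1 was added to the FPKM, the log2 was taken, and limma was fitted to the 13465 genes with a mean of at least 0.1 FPKM, with Benjamini-Hochberg adjustment over all of them. On this scale ICAM1 fell by 3.20 (limma, standard error 0.046, adjusted p = 1.1e-11). In the ranking of the 17039 genes by FPKM, it stood at the 81.6th to 82.4th percentile in MDA-MB-231 libraries and at the 42.6th to 43.5th in 231-BR libraries. Antisense genes overlap exons of ICAM1, ICAM3 and ICAM4 in the annotation, and their reads cannot be told apart from those of the members without strand. The study had placed ICAM1 in a group of network genes picked on these same libraries, so its change is not independent evidence.

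ICAM2, which blood vessel lining cells and platelets carry without stimulation, went the other way. Its values were 21.35, 20.04 and 19.30 FPKM in 231-BR cells against 0.04 and 0.07 in MDA-MB-231 replicates 1 and 2, and it was listed at 0 in replicate 3. The 231-BR values were thus all near 20, and none of the MDA-MB-231 values reached 0.1. The fitted log2 fold change was 7.25 (limma, standard error 0.167, adjusted p = 1.8e-10), a size that rests on the constant added to the FPKM and ran from 4.36 with 1 added to 9.21 with 0.01 added. ICAM2 passed the filter on low values only through its level in 231-BR cells. Exons of PRR29 on the opposite strand overlap those of ICAM2, and no source states that the counting used strand. PRR29 had 0.62, 0.68 and 0.67 FPKM in 231-BR cells and was listed at 0 in all MDA-MB-231 libraries, and its part in the ICAM2 values was not tested.

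ICAM3, known from resting leukocytes, had 5.09, 5.10 and 5.60 FPKM in the 231-BR libraries, compared with 1.92, 1.82 and 1.35 FPKM in the MDA-MB-231 libraries. The groups did not overlap, and the log2 fold change was 1.59 (limma, standard error 0.117, adjusted p = 6.6e-07). ICAM5, which in the body is made by neurons of the forebrain, had 4.15, 4.36 and 4.53 FPKM against 1.30, 1.56 and 1.15 FPKM. Here too every 231-BR library was higher, and the log2 fold change was 1.64 (limma, standard error 0.104, adjusted p = 2.1e-07). The spread between replicates was wider in MDA-MB-231 cells for both genes, with a coefficient of variation of 17.9% for ICAM3 and 15.5% for ICAM5 against 5.54% and 4.38% in 231-BR cells.

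ICAM4, the red blood cell member of the family, was barely detected. It was listed at 0 in 231-BR replicates 1 and 2 and had 0.03 FPKM in replicate 3, against 0.10, 0.28 and 0.24 FPKM in MDA-MB-231 cells. It passed the filter on low values only through MDA-MB-231 cells, so its fitted log2 fold change of -1.44 (limma, standard error 0.278, adjusted p = 0.00084) is of little weight. It ran from -0.25 with 1 added to -3.65 with 0.01 added, and without MDA-MB-231 replicate 2 or replicate 3 the gene was below the filter and not tested.

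**Figure D1:**
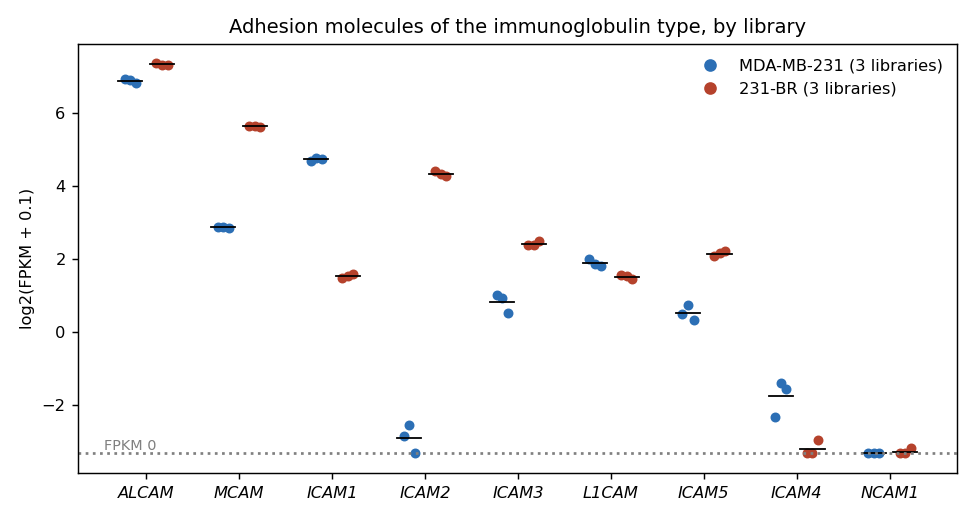
Level of the 9 analysed genes in each library as log2(FPKM + 0.1), ordered by mean level, with 1 point per library, a bar at the mean of each line and a dotted line where FPKM is 0. ICAM1 and ICAM2 trade places between the lines, MCAM, ICAM3 and ICAM5 are higher in all 231-BR libraries, and NCAM1 lies at the floor.

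MCAM, a receptor on vessel walls and melanoma cells, had 50.5, 49.8 and 49.6 FPKM in 231-BR cells, compared with 7.24, 7.28 and 7.16 FPKM in MDA-MB-231 cells. These were the tightest replicates of any member, with a coefficient of variation of 0.965% and 0.845%. The log2 fold change was 2.77 (limma, standard error 0.030, adjusted p = 3.0e-12). MCAM rose from the 58.2nd to 58.4th percentile of all genes to the 90.1st to 90.3rd. The annotation has exons of CBL on the opposite strand that overlap MCAM, and CBL had 16.0 ± 0.393 against 9.25 ± 0.747 FPKM (SD, n = 3 each). The CBL difference was 0.79 on the log2 scale, and its part in the MCAM values was not tested.

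ALCAM, which binds itself and CD6 of T cells, had 164, 159 and 160 FPKM in 231-BR cells, compared with 122, 120 and 113 FPKM in MDA-MB-231 cells. The libraries did not overlap, and the log2 fold change of 0.45 (limma, standard error 0.030, adjusted p = 3.6e-07) was small beside those of MCAM and ICAM2. ALCAM stood at or above the 96.0th percentile of all genes in every library. L1CAM, an axon growth molecule, had 2.88, 2.78 and 2.65 FPKM in 231-BR cells against 3.93, 3.58 and 3.39 FPKM. It was lower in every 231-BR library, with a log2 fold change of -0.38 (limma, standard error 0.074, adjusted p = 0.00092), which became -0.66 after quantile normalization. Exons of U52112.1 on the same strand and of LCA10 on the opposite strand overlap those of L1CAM. Their part in the L1CAM values was not tested. NCAM1, the neural molecule that carries polysialic acid, was listed at 0 in 5 of the 6 libraries and had 0.01 FPKM in 231-BR replicate 3, so it was not tested.

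Of the 8 members tested, 5 passed the test with higher values in 231-BR cells (adjusted p under 0.05), where 44.4% of all genes tested were, and 3 were lower, where 32.9% of all genes were. With a log2 fold change beyond 1 as well, 4 members were higher, namely ICAM2, ICAM3, ICAM5 and MCAM, against 10.9% of all genes, and 2 were lower, namely ICAM1 and ICAM4, against 4.34%. The same 5 and 3 members had no overlap between the libraries of the lines, in the direction of their call, which was so for 44.9% and 33.5% of all genes. Since most genes of the table differed at this threshold, the number of members called is not a result about them. The sizes of the differences are what sets ICAM1, ICAM2 and MCAM apart from ALCAM and L1CAM. The median log2 fold change of the 8 members was 1.02, where the median over all genes tested was 0.08. Over all genes the balance moved with the scaling, from 5973 higher and 4433 lower to 4825 higher and 5749 lower after quantile normalization, which shifted the median to -0.06, and none of the 8 members changed direction.

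The summed level of the ICAM family was 1.10 times higher in 231-BR cells, while its makeup changed far more. The summed FPKM of ICAM1 to ICAM5 was 33.3, 32.3 and 32.4 in the 231-BR libraries, compared with 29.1, 30.8 and 29.4 in the MDA-MB-231 libraries (exact permutation p = 0.10, two-sided). ICAM1 made up 87.9% to 90.7% of that sum in MDA-MB-231 cells and 8.11% to 8.99% in 231-BR cells. ICAM2 made up 59.6% to 64.1% in 231-BR cells, compared with at most 0.227% in MDA-MB-231 cells. The summed level depends on the scaling between libraries, which was not varied for this sum, whereas ratios within a library do not. The ratio of ICAM3 to ICAM1 was 1.83 to 1.92 in 231-BR cells, compared with 0.051 to 0.075 in MDA-MB-231 cells, and that of ICAM5 to ICAM1 was 1.54 to 1.56 against 0.043 to 0.058. The ratio of ICAM5 to ICAM3 was 0.809 to 0.855 in 231-BR cells, compared with 0.677 to 0.857 in MDA-MB-231 cells, so the libraries of the lines overlapped for this pair (exact permutation p = 0.90, two-sided). For the other ratios the exact permutation p was 0.10, the smallest that 3 against 3 libraries can give.

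**Figure D2:**
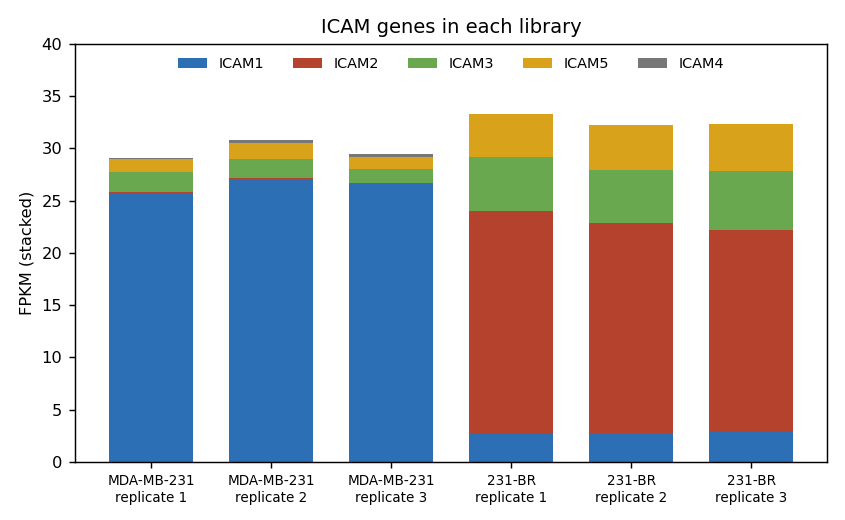
Summed FPKM of ICAM1 to ICAM5 in each library, stacked by gene from 0. The bars reach 29.1 to 30.8 FPKM in MDA-MB-231 libraries, where ICAM1 fills most of the bar, and 32.3 to 33.3 FPKM in 231-BR libraries, where ICAM2 does.

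Over all 9 genes the summed level was 251, 244 and 245 FPKM in 231-BR cells, compared with 162, 162 and 153 FPKM in MDA-MB-231 cells (exact permutation p = 0.10, two-sided). ALCAM made up 65.4% ± 0.171 of it in 231-BR cells, compared with 74.4% ± 0.630 in the parental MDA-MB-231 line (SD, n = 3 each). MCAM made up 20.3% ± 0.159 and 4.55% ± 0.112, and ICAM1 1.14% ± 0.056 and 16.7% ± 0.765. In 231-BR cells the order of mean levels was ALCAM, MCAM, ICAM2, ICAM3, ICAM5, ICAM1, L1CAM, ICAM4 and NCAM1, and the libraries overlapped for ICAM1 and L1CAM and for ICAM4 and NCAM1. In MDA-MB-231 cells it was ALCAM, ICAM1, MCAM, L1CAM, ICAM3, ICAM5, ICAM4, ICAM2 and NCAM1, with overlap for ICAM3 and ICAM5 and for ICAM2 and NCAM1. The members held 0.052% to 0.054% of the summed FPKM of all genes in 231-BR libraries, compared with 0.031% to 0.033% in MDA-MB-231 libraries.

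The opposite directions of ICAM1 and its neighbours stand out along chromosome 19. From MRPL4 to TYK2 the table holds 9 genes, and 7 of them passed the limma test with higher values in 231-BR cells, with log2 fold changes from 0.63 for ZGLP1 to 1.64 for ICAM5. MRPL4, a mitochondrial ribosomal protein gene and the gene before ICAM1, had a log2 fold change of 0.81, FDX2, a mitochondrial iron-sulfur gene, had 0.95, and RAVER1 had 0.78. TYK2, a kinase of cytokine receptors that follows ICAM3, had 1.04. ICAM1 and ICAM4 were the only genes of the stretch that were lower. The genes around it were higher too. The 40 neighbours of ICAM1 were taken as 20 on either side with a mean of at least 1 FPKM. Of these, 38 were significantly higher and 0 significantly lower at an adjusted p under 0.05, beside 44.4% and 32.9% of all genes tested. The lowest log2 fold change among the neighbours was -0.07. Their median was 0.76, against 0.06 for all genes of that level. ICAM1 was thus lower within a stretch that was higher. ICAM3 and ICAM5 exceeded the medians of their own neighbours, which were 0.74 and 0.75, and 3 of the 40 neighbours of each had a log2 fold change at least as high.

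**Figure D3:**
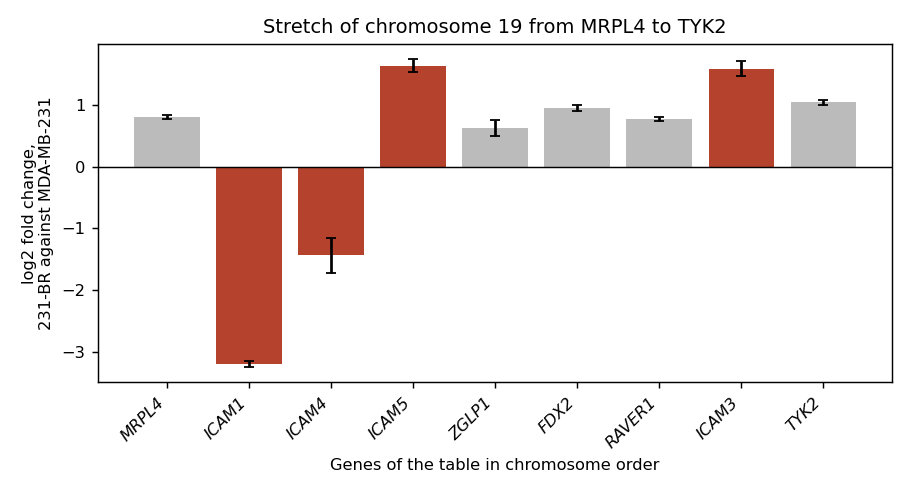
Fitted log2 fold change of 231-BR against MDA-MB-231 cells for the 9 genes of the table from MRPL4 to TYK2 in chromosome order, with error bars of 1 standard error and the ICAM genes in red. ICAM1 and ICAM4 lie below 0, at -3.20 and -1.44, and the 7 other genes lie between 0.63 and 1.64.

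The other members were set beside their own neighbours in the same way. The 40 neighbours of ICAM2 had a median log2 fold change of 0.42 and reached at most 1.68, so that none of these came near the change of ICAM2. PRR29, whose exons overlap those of ICAM2, was below the level asked of neighbours and is not among them. Its log2 fold change was 2.92. Those of MCAM had a median of 0.35, and 2 of the 40 had a log2 fold change at least as high as MCAM. For ALCAM, with a neighbours' median of 0.27, 17 of the 40 were at least as high, and for L1CAM, with -0.25, 13 were at least as low. With 10 genes on either side the median was 0.79 for ICAM1 and 0.19 for ICAM2.

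**Figure D4:**
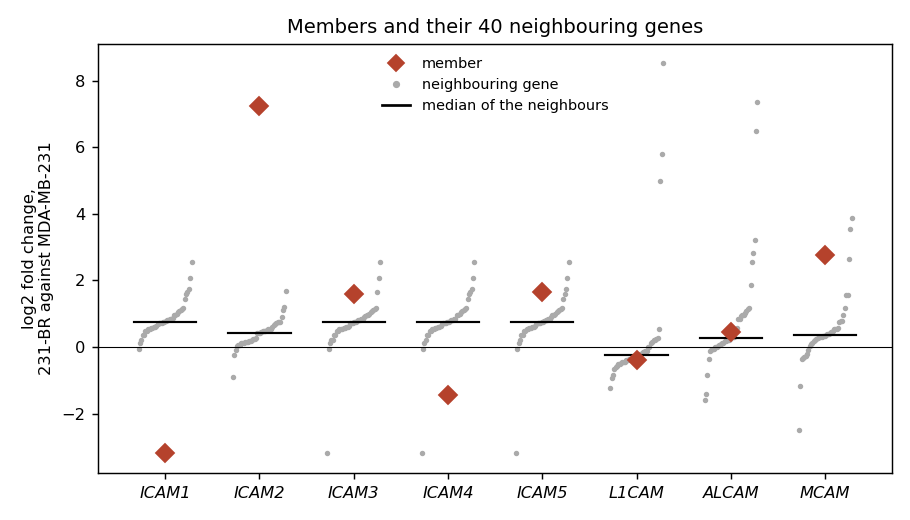
Log2 fold change of each tested member (diamond) beside its 40 neighbouring genes (points) and their median (line), for 231-BR against MDA-MB-231 cells. ICAM1 and ICAM2 lie outside the range of their neighbours, whereas ALCAM and L1CAM lie among theirs. The low point beside ICAM3, ICAM4 and ICAM5 is ICAM1.

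Genes with the most similar pattern were found by the distance over the 6 libraries between log2(FPKM + 0.1) values centred on each gene's mean, among 11417 other genes with a mean of at least 1 FPKM in either line. Since replicates lay close together, this distance mostly picks genes of a similar log2 fold change between the lines. For ICAM2 it also depends on the 0.1 added. For ICAM1 the closest were MAPK13, a stress kinase gene, CSF3, which encodes the growth factor of granulocytes, and SERPINB2, an inhibitor of plasminogen activators, with distances of 0.135, 0.171 and 0.178. Their log2 fold changes were -3.14, -3.20 and -3.08. For ICAM2 they were ADGRE1, CD33 and CHRDL1, at distances of 0.549, 0.579 and 0.656, of which CD33 was listed at 0 in all MDA-MB-231 libraries. For MCAM they were RNF144B, SEMA3E and CRADD, with 22.9 FPKM of CRADD in 231-BR cells against 3.08. ICAM3 was closest to PARD3B, MYZAP and GSTO2, and ICAM5 to CDA, POU3F2 and LOC105373311.

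The alpha chains of the leukocyte integrins that bind ICAM proteins were close to 0 in both lines, as far as they were analysed. ITGB2, the beta chain of the leukocyte integrins, had 10.7 ± 0.341 FPKM in 231-BR cells, compared with 5.95 ± 0.218 in the parental MDA-MB-231 line (SD, n = 3 each), with a log2 fold change of 0.83. Its alpha chains ITGAL, ITGAX and ITGAD had means of at most 0.033 FPKM in either line, and ITGAM was not analysed here. Of the chains that bind VCAM1, ITGA4 and ITGB7 had means of at most 0.017 FPKM, whereas ITGB1, a chain shared by many integrins, had 246 ± 2.98 FPKM against 479 ± 16.2 FPKM (SD, n = 3 each). Over the list of 19 binding partners, 9 were tested, of which 4 were higher and 4 lower at an adjusted p under 0.05, beside 44.4% and 32.9% of all genes, with a median log2 fold change of -0.06. LAMA4, a laminin chain bound by MCAM, rose together with MCAM, from 0.263 ± 0.064 to 8.41 ± 0.148 FPKM (SD, n = 3 each; log2 fold change 4.57). LGALS3, the galectin that also binds MCAM, rose from 22.8 to 47.8 FPKM, with a log2 fold change of 1.06. ITGAV, which binds L1CAM, had a log2 fold change of -1.25 and ITGA5 of -0.70. FGFR1, a signalling partner of NCAM1 and L1CAM, had 0.36, and NRP1, with -0.06 and 29.4 against 30.7 FPKM, did not pass the test.

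Linkers to the cytoskeleton hold the tails of these proteins. All 11 genes listed were tested, and 7 were higher and 2 lower in 231-BR cells, with a median log2 fold change of 0.20. The number higher ran from 6 to 8 under the other settings. Over all genes tested, 44.4% were higher and 32.9% lower. MSN, which encodes moesin and links the tails of ICAM proteins to actin, rose from 251 ± 3.38 to 652 ± 6.64 FPKM (SD, n = 3 each), with a log2 fold change of 1.37. Its relatives EZR and RDX had -0.13 and 0.07. The ankyrin genes, whose products bind the tail of L1CAM, differed among themselves: ANK3 had a log2 fold change of 3.61 and ANK2 of 1.80, whereas ANK1, with 0.813 against 0.780 FPKM, did not pass the test. FYN, a kinase of L1CAM and NCAM1 signalling, had 0.93 and SPTBN1, a spectrin, 0.38. The alpha-actinins ACTN1 and ACTN4 had 0.04, which did not pass, and -0.09.

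Enzymes that act on the members moved little. ADAM17, which sheds ICAM1, L1CAM and others from the surface, had 12.1 ± 0.290 FPKM in 231-BR cells, compared with 17.6 ± 0.741 FPKM in the parental MDA-MB-231 line (SD, n = 3 each), with a log2 fold change of -0.54. ADAM10, which sheds L1CAM, had -0.19, BACE1, a protease that cuts some of this class, had 0.20, and ST8SIA4, which adds polysialic acid to NCAM1, had -0.27. All 4 had an adjusted p under 0.05 in limma, 1 of them higher and 3 lower, beside 44.4% and 32.9% of all genes tested. The median log2 fold change of the 4 was -0.23.

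Genes listed around ICAM1 and VCAM1 were mostly lower in 231-BR cells, as was ICAM1. The list holds cytokines, receptors and transcription factors known to act on ICAM1 and VCAM1. It also holds inhibitors and targets of NF-kB, such as NFKBIA and TNFAIP3. The count of genes lower thus mixes genes that drive NF-kB with genes that restrain it. Of 21 genes listed, 20 were tested, and 16 were lower and 1, the interleukin receptor IL1R1, was higher at an adjusted p under 0.05 (limma), beside 32.9% and 44.4% of all genes, with a median log2 fold change of -0.68. Among the genes lower, IL1A had 0.353 ± 0.060 FPKM against 14.3 ± 0.676 and IL1B had 0.880 ± 0.122 against 13.01 ± 0.641 (SD, n = 3 each), log2 fold changes of -5.00 and -3.75. RELB, a subunit of NF-kB, had -2.13 and NFKBIA, its inhibitor and target, -1.66, while RELA, the main activating subunit, had -0.23. CEBPB had -0.83 and TNFRSF1A, a receptor for TNF, -0.39. NFKB1, with 21.5 against 20.8 FPKM, and IFNGR1, with 13.5 against 14.4, did not pass the test. The list was drawn up with lower values of NF-kB genes in these libraries known, and it is no independent support.

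Other adhesion genes of the superfamily were counted against the shares of all genes tested, 44.4% higher and 32.9% lower. Of 35 genes listed, 19 were tested, and 231-BR cells had more of 11 and less of 6 at an adjusted p under 0.05, with a median log2 fold change of 0.51, so that the share lower was near that of all genes. CADM4, a cell contact molecule, rose from 0.530 ± 0.044 to 7.83 ± 0.158 FPKM (SD, n = 3 each), with a log2 fold change of 3.66, and F11R, a junction molecule, had 0.98. CNTN5, a contactin of neurons, had 2.58 ± 0.212 FPKM in 231-BR cells (SD, n = 3) and was listed at 0 in all MDA-MB-231 libraries. ESAM, an endothelial junction molecule, had 47.8 ± 0.380 FPKM against 109 ± 2.78 FPKM (SD, n = 3 each), with a log2 fold change of -1.18. BSG, the most expressed gene of the list, had -0.49, and the nectins NECTIN1, NECTIN2 and NECTIN3 had 0.55, -0.24 and 0.95. PVR, the poliovirus receptor, had 39.9 FPKM in both lines and did not pass the test.

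**Figure D5:**
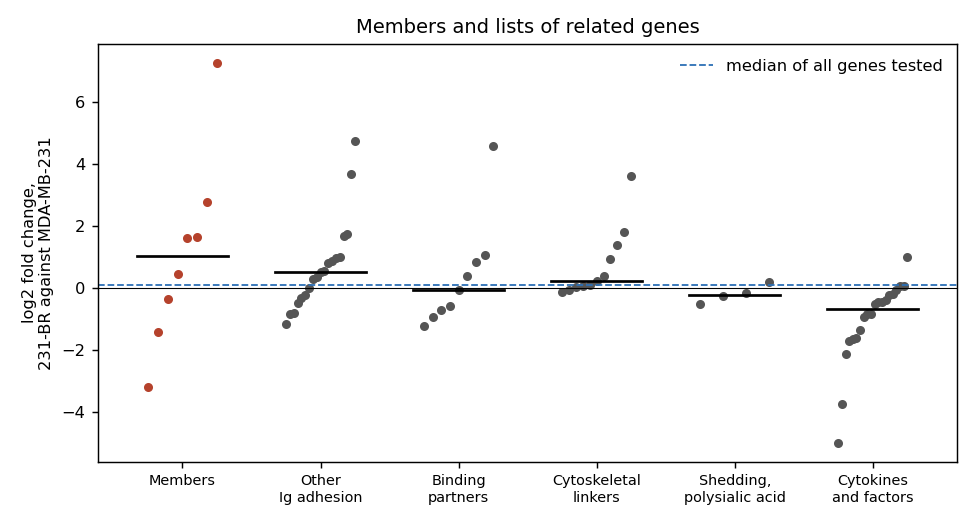
Fitted log2 fold change of each tested gene in the members and 5 lists of related genes, for 231-BR against MDA-MB-231 cells, with a bar at the median of each list and a dashed line at 0.08, the median of all genes tested. The members spread from -3.20 to 7.25, and the cytokine and factor list has the lowest median, -0.68.

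The lines were checked against markers, because ICAM2, MCAM and ICAM3 are typical of other cell types. VIM, the filament of mesenchymal cells, had 2553 FPKM in 231-BR cells, compared with 2306 in MDA-MB-231 cells, and the hormone receptor PGR and the epithelial CDH1 had means of at most 0.060 FPKM. Other epithelial and receptor genes of this list were expressed in both lines. KRT8 had 176 against 237 FPKM, KRT18 273 against 352, EPCAM 8.70 against 5.06, ERBB2 9.88 against 4.95 and ESR1 0.927 against 0.790. EGFR had 91.2 against 33.3 FPKM, a log2 fold change of 1.45, and CD44 had 181 against 251 FPKM. Of 8 endothelial markers, CDH5, VWF, TEK, CLDN5, ERG and EMCN had means of at most 0.070 FPKM in both lines. The summed level of the list was 64.9 to 66.3 FPKM in 231-BR libraries, compared with 21.03 to 21.85 in MDA-MB-231 libraries, and it came mostly from TIE1, with 37.1 against 5.85 FPKM, and ROBO4, with 28.5 against 15.5. The leukocyte markers, of which 6 of 8 were analysed, summed to 0.55 to 0.69 FPKM in 231-BR libraries, compared with 0.49 to 0.69 in MDA-MB-231 libraries, with PTPRC at most 0.04 in any library. These markers do not stand for all leukocyte genes. Outside the list, the leukocyte genes ADGRE1 and CD33 averaged 19.2 and 14.9 FPKM in 231-BR cells. In MDA-MB-231 cells they averaged 0.0067 and 0 FPKM. The neural and glial markers, of which 7 of 8 were analysed, summed to 26.9 to 28.2 FPKM against 13.4 to 14.9 FPKM. Most of this came from MBP, with 20.997 against 13.6 FPKM, and SYT1, with 6.35 against 0.38 FPKM. SNAP25 was lower in 231-BR cells, with 0.053 against 0.203 FPKM. RBFOX3, GFAP, AQP4 and MOG had means of at most 0.127 FPKM in either line. The part of these other-tissue markers in the ICAM2, MCAM and ICAM5 values was not tested. The summed FPKM of all genes was 465020 to 472007 in 231-BR libraries, compared with 486937 to 496420 in MDA-MB-231 libraries, and 11166 to 11178 against 10785 to 10806 genes reached 1 FPKM.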

How the data were processed

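Poly(A) RNA was sequenced on the BGISEQ-500. The authors filtered reads with SOAPnuke, and per the submitters' processing notes used HISAT2 2.0.4, Bowtie2 2.2.5 and GRCh38.p12. The deposited values are FPKM with 2 decimals. Bowtie2 served to align reads to a gene set of the sequencing company, and the program that computed FPKM and its use of strand are not given in the sources used here. Read depth is unknown, since the 2 decimals are too coarse to recover whole reads (1238 genes of at most 0.3 FPKM share 30 distinct values). The authors' test on counts could not be repeated.

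The line was the term of a linear model for log2(FPKM + 0.1), with a mean-variance trend in eBayes (limma 3.58.1, R 4.3.3), for genes with a mean of at least 0.1 FPKM. The fit was tested on simulated data. The libraries were not paired by replicate number in this model. Gene order came from RefSeq (GRCh38.p14), with 16798 identifiers matched, positions from GENCODE release 29, and figures from Python 3.11.15 with matplotlib 3.10.9.

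The members and lists were chosen with earlier results of these data known. In each list, the text names up to 4 called genes of largest fold with a mean of at least 1 FPKM in either line, up to 4 more of highest level, and the ICAM and VCAM1 integrins. All members, the genes from MRPL4 to TYK2 and the 3 genes most like each member of large change were also named. IL1R1, IFNGR1, NFKB1, TNFAIP3, NECTIN3, RDX, ANK1, CBL, PRR29 and the markers were named after their values were seen. One listed gene is not reported here. The lists were the binding partners, linkers, enzymes, cytokine inputs and factors, other superfamily genes and markers. Alternatives were pseudocounts of 1 and 0.01, filters of 0 and 1 FPKM, 2 scalings, no trend, a replicate block and each library left out.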

Additional observations from a re-analysis of the deposited data

How the results depend on the processing

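All 109 log2 fold changes of the 8 tested members under the 14 alternatives that gave one kept the direction and an adjusted p under 0.05 in limma, with 0.0051 as the highest. ICAM4 gave none with a filter at a mean of 1 FPKM or without MDA-MB-231 replicate 2 or replicate 3, where it was not tested. The members lower with a log2 fold change beyond 1 numbered 2, and 1 with that filter, 1 with a pseudocount of 1, and 1 to 2 with each library left out. The filter also left 7 of 11 other superfamily genes higher. It left 0 of the cytokine inputs and factors higher in limma, with 0 at an unadjusted p under 0.05, since IL1R1 was no longer tested. The summed FPKM of the members was 87.6 higher in 231-BR cells, 78.7 after median-of-ratios scaling and 84.6 to 89.1 with each library left out. Same-numbered libraries deviated with correlations of 0.087, -0.040 and -0.11. These show little shared deviation but cannot tell whether same-numbered libraries were prepared together. With the replicate block 6015 genes were higher and 4487 lower, against 5973 and 4433, and 5 members were higher and 3 lower, as without it. With median-of-ratios scaling the median of the neighbours was 0.70 for ICAM1 and 0.36 for ICAM2. FPKM without read counts limits what can be said of ICAM4, NCAM1 and of ICAM2 in MDA-MB-231 cells.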
